A study of Mus musculus with 2 samples.

Results

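The genes followed here, 9 in number, serve the uptake of iron by erythroid cells, its passage through endosome and mitochondrion, and its storage and sensing: Tfrc, Tfr2, Slc11a2, Steap3, Slc25a37, Slc25a38, Abcb10, Fth1 and Ireb2. They were chosen by name, as the non-control probes whose gene name on the array is one of these symbols. That rule found 13 probes of 8 genes. No probe was named Tfr2, and its 1 probe was found under the older symbol Trfr2 with the RefSeq transcript NM_015799, so that all 9 genes and 14 probes entered, of 36315 genes or lincRNA intervals on the array. The cells were Lin- erythroid progenitors of E14.5 fetal livers of C57BL/6 mice. They had been transduced with ESlncRNA, a long noncoding RNA of erythroid cells, or with vector, and GFP+ cells were sorted. Each of 2 arrays compared both RNAs, with ESlncRNA in Cy5 and vector in Cy3 on both. The labels give an input of 100 ng for replicate 2 and none for replicate 1. The dyes were not swapped, so any dye bias of a probe enters both ratios with the same sign. Whether the 2 replicates are separate cultures or animals is not stated. The p-values thus rest on the spread between only 2 arrays, which limma draws from all probes as well as from each probe. That spread may be technical.

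Erythroid precursors take up iron almost wholly as iron-loaded transferrin, which binds transferrin receptor 1 and enters by endocytosis. In the acid endosome the iron is released, reduced by a ferrireductase and moved to the cytosol by a divalent metal transporter, and from there mitoferrin brings it into mitochondria for insertion into heme. Iron not used for heme is stored in ferritin, and iron regulatory proteins read the cytosolic iron and bind hairpins in the messenger RNAs of the receptor, the transporter and ferritin.

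The brightest probe of the lincRNA interval taken for ESlncRNA (chromosome 4, 109076298 to 109076357, forward strand, mm9), an assignment by position made with earlier results known and not tested here, had normalised intensities of 378 and 356 with ESlncRNA, against 81.0 and 77.9 with vector on the arrays of replicates 1 and 2. With vector this probe was not well above background, which makes the ratio a bound of at least 4.62-fold higher. All 21 erythroid marker genes tested were well above background in both channels on both arrays, and so were all 14 probes of the 9 iron genes. None of the spots was saturated (0 on each array).

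On the array 5 of the genes had a single 60-base probe each, while 4 (Tfrc, Slc11a2, Steap3 and Slc25a37) had several that can be set against each other. Exon and UTR positions of the probes were not analysed here. The label was primed with oligo-dT, per the labels' protocols. The following stretches of up to 30 bases show the pairs of probes whose ratios differed and 2 more that hold a poly(A) signal. They were read from the array files, 5′ to 3′ as on the array, and capitals mark the poly(A) signal AATAAA or its variant ATTAAA.
Slc11a2, downstream probe (chromosome 15, 100218333 to 100218392, reverse strand, mm9): catccttgttatAATAAAgttcatgcttaa
Slc11a2, upstream probe (chromosome 15, 100240516 to 100240575, reverse strand): gagactctgaggagcccttcaccacctact
Slc25a37, downstream probe (chromosome 14, 69860020 to 69860079, reverse strand): taagagtggcctagtgttgctttccgaatg
Slc25a37, upstream probe (chromosome 14, 69902797 to 69902856, reverse strand): acatgacagcgggagcgatggccgggattc
Steap3, downstream probe (chromosome 1, 122123244 to 122123303, reverse strand): atgtgccccaggcctgccttcATTAAAttg
Steap3, upstream probe (chromosome 1, 122124269 to 122124328, reverse strand): aaccgcagactcaccaagatacgcaggggc
Tfr2 (chromosome 5, 138028646 to 138028705, forward strand): ggattagatgtcAATAAAccaattgtaacc
Slc25a38 (chromosome 9, 120033376 to 120033435, forward strand): gcacccagacccAATAAAcaAATAAAtgta

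With ESlncRNA 7 of the 9 genes rose, 1 fell and 1 did not pass, each gene taken by its brightest probe (limma, Benjamini-Hochberg adjusted p under 0.05). Over the 19870 genes tested, 26.3% were called higher and 36.8% lower. The median log2 ratio of ESlncRNA over vector was 0.57 for the 9 genes and -0.03 for all genes tested. The changes were modest. Over probes, 10 of the 14 rose and 1 fell, against 25.9% and 35.8% of all probes kept. At least 1.5-fold higher on both arrays were 4 of the 9, namely Tfrc, Tfr2, Abcb10 and Fth1, and 3.24% of all genes tested. None of the 9 was 1.5-fold lower on both arrays, against 13.5% of all genes. None of the 9 reached 2-fold on both arrays in either direction, which 0.604% of all genes did upward and 8.1% downward.

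**Figure D1:**
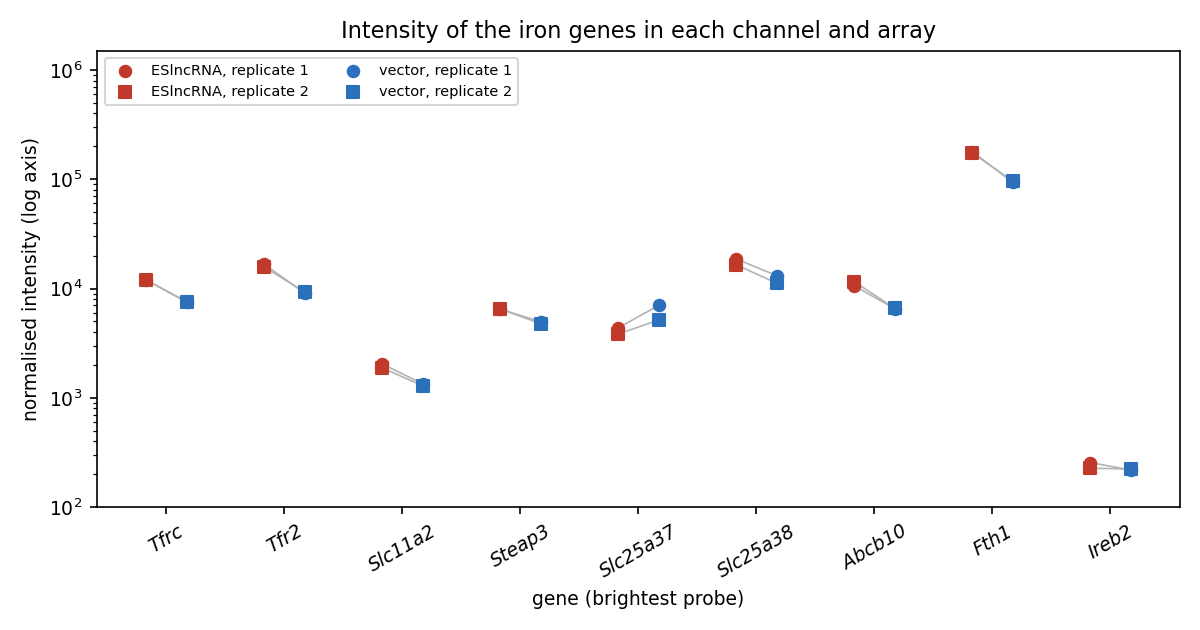
Normalised intensity (log axis) of the brightest probe of each gene, with ESlncRNA on the left and vector on the right, circles for replicate 1 and squares for replicate 2, and a line joining the channels of 1 array. The lines fall to the right for 7 genes, rise to the right for Slc25a37 and are nearly level for Ireb2. Heights of different genes are not comparable, since each comes from another probe.

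Both transferrin receptors rose. Tfrc, the receptor that brings transferrin into erythroid cells, had normalised intensities of 11950.4 and 11927 with ESlncRNA, against 7604 and 7496 with vector, on the arrays of replicates 1 and 2. Both ESlncRNA values lay above both vector values, and Tfrc was 1.58-fold higher (log2 ratio 0.66 ± 0.013, SD, n = 2 arrays, adjusted p = 4.82e-05, limma). This probe (chromosome 16, 32632255 to 32632314, forward strand, mm9) was printed in 10 spots on each array, which gives a measure of the error within an array. The log2 ratios of its 7 unmarked spots on the array of replicate 1 ran from 0.50 to 0.79 with a median of 0.62. Those of the 10 spots on the array of replicate 2 ran from 0.57 to 0.79 with a median of 0.67. The spread between spots of 1 array (SD 0.098 and 0.066) was thus larger than the difference between the arrays' means.

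The other Tfrc probes read other places of the transcript and gave ratios of similar size. The probe from 32620470 to 32620529 had intensities of 2923 and 3472 with ESlncRNA, against 1894 and 2069 with vector, a log2 ratio of 0.69 ± 0.085 (SD, n = 2 arrays, adjusted p = 6.89e-05, limma). The third probe covers 217 bases of the genome with its 60 bases, from 32624877 to 32625093, so its sequence is split on the genome. Its log2 ratio was 0.75 ± 0.013 (SD, n = 2 arrays, adjusted p = 2.59e-05, limma), from intensities of 441 and 399.7 with ESlncRNA, against 263 and 235 with vector. All 3 probes were higher with ESlncRNA on both arrays.

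Tfr2, the second transferrin receptor, which in the liver takes part in sensing iron and in erythroid cells associates with the erythropoietin receptor, had log2 ratios of 0.87 and 0.75, and the difference from Tfrc was not tested. Its intensities were 16608 and 15691 with ESlncRNA, against 9096 and 9303 with vector, and it was 1.75-fold higher (0.81 ± 0.081, SD, n = 2 arrays, adjusted p = 2.94e-05, limma). The channels did not overlap. With 1 probe for Tfr2 there was no second measurement within the gene.

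The endosomal steps rose as well, but probes of the same gene differed. Steap3, the ferrireductase of the erythroid transferrin endosome, had intensities of 6467 and 6490.0 with ESlncRNA at its brighter, upstream probe, against 4966 and 4774 with vector. It was 1.33-fold higher there (0.41 ± 0.044, SD, n = 2 arrays, adjusted p = 5.17e-04, limma). The downstream probe, 1025 bases along the genome, was 1.69-fold higher (0.75 ± 0.096, adjusted p = 4.96e-05, limma), with intensities of 2869 and 2960.3 for ESlncRNA and 1782 and 1674 for vector. Its ratio exceeded that of the upstream probe by 0.31 and 0.38 on the log2 scale on the arrays of replicates 1 and 2. Both probes list the same 2 RefSeq transcripts, NM_001085409 and NM_133186.

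Slc11a2, the divalent metal transporter DMT1 that moves iron out of the endosome, rose at its downstream probe. There the intensities were 2034 and 1874 with ESlncRNA, against 1345 and 1289 with vector, a 1.48-fold difference (0.57 ± 0.040, SD, n = 2 arrays, adjusted p = 1.12e-04, limma). The upstream probe, whose start lies 22183 bases away on the genome, had intensities of 218.5 and 244 with ESlncRNA, against 205 and 233 with vector. Across the arrays the channels overlapped at that probe, though ESlncRNA was higher on each array (0.09 and 0.07). It did not pass (0.08 ± 0.017, adjusted p = 0.195, limma). The array files list NM_008732 for both probes and NM_001146161 for the upstream probe alone. The ratio of the downstream probe exceeded that of the upstream probe by 0.51 and 0.47 on the 2 arrays. With Agilent's processed signals the difference was 0.43 and 0.36, and the upstream probe then passed (0.41, adjusted p = 0.0204, limma). It passed with median centring too (0.35, adjusted p = 6.32e-05, limma), where the median of all genes was 0.34. There the difference between the probes was 0.72 on both arrays. The downstream probe had the higher ratio in all 9 settings in which probes were fitted singly. Settings that change only which probes are kept or how the arrays are modelled reuse the loess ratios, so the 9 are not independent.

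**Figure D2:**
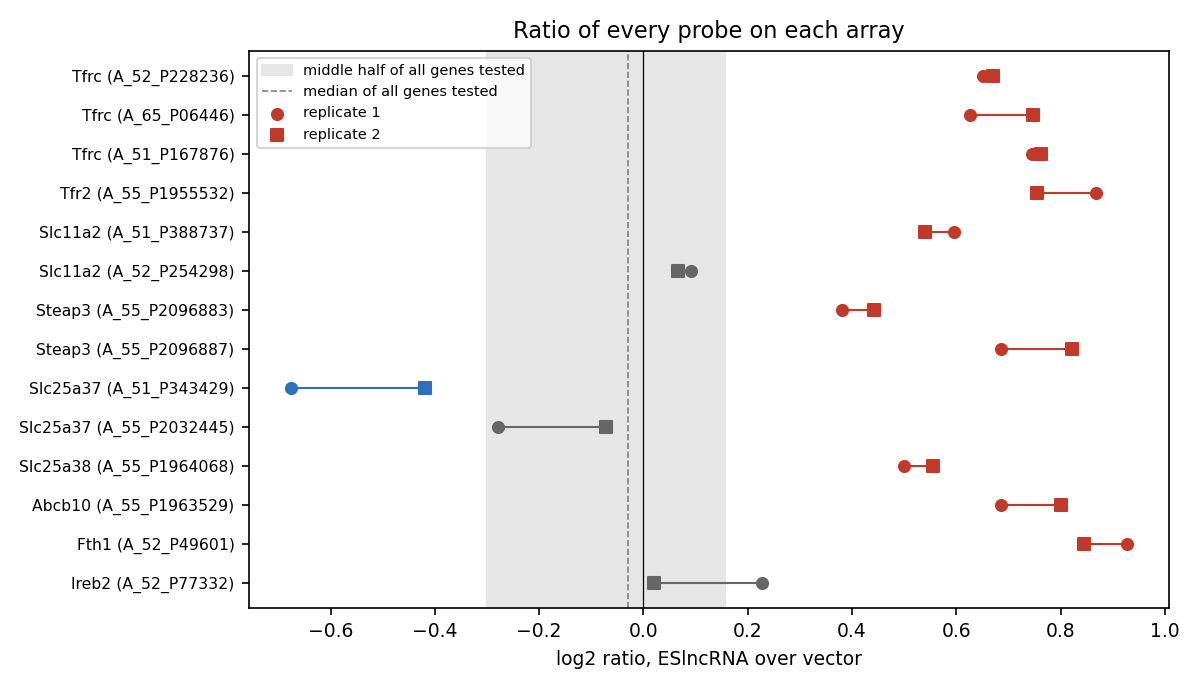
Log2 ratio of ESlncRNA over vector of all 14 probes, with circles for the array of replicate 1 and squares for that of replicate 2. Red marks probes that rose, blue the probe that fell and grey those that did not pass, and the grey band runs between the quartiles of all genes tested, from -0.30 to 0.16. All 3 Tfrc probes lie between 0.63 and 0.76, while the probes of Slc11a2, Steap3 and Slc25a37 stand apart from their partners.

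The genes of the mitochondrion moved in opposite directions. Slc25a37, mitoferrin 1, which imports iron into the mitochondria of erythroblasts, was the gene that fell. At its brighter, downstream probe it had intensities of 4376.5 and 3843 with ESlncRNA, against 6991 and 5137 with vector. The channels did not overlap, but both were lower on the array of replicate 2, and the log2 ratio was -0.68 on the array of replicate 1 and -0.42 on that of replicate 2. It was 1.46-fold lower (-0.55 ± 0.18, SD, n = 2 arrays, adjusted p = 7.10e-04, limma). The upstream probe, 42777 bases away on the genome, had intensities of 742 and 633 with ESlncRNA, against 900.3 and 665 with vector, and missed the threshold (-0.17 ± 0.15, adjusted p = 0.0500016, limma). Its channels overlapped. Its call and its sign depended on the setting. It passed as lower among probes with both channels above background (adjusted p = 0.0449), was at 0.06 from the processed signals (adjusted p = 0.539), and was called higher with median centring (0.25, adjusted p = 0.00536, limma), where the median of all genes was 0.34. The downstream probe minus the upstream probe gave -0.40 and -0.35 on the log2 scale on the arrays of replicates 1 and 2.

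Slc25a38, a carrier of the same family that brings glycine into the mitochondrion for the first step of heme synthesis, rose. Its intensities were 18594 and 16472.5 with ESlncRNA, against 13146 and 11205 with vector, so it was 1.44-fold higher (0.53 ± 0.039, SD, n = 2 arrays, adjusted p = 1.59e-04, limma). Abcb10, an inner membrane transporter that binds mitoferrin 1 and stabilises it, had intensities of 10554 and 11512 with ESlncRNA, against 6558 and 6607 with vector. It was 1.67-fold higher (0.74 ± 0.081, SD, n = 2 arrays, adjusted p = 4.47e-05, limma). In both genes all ESlncRNA values exceeded all vector values. Slc25a37 had the lowest ratio of the 9 genes in each of the 10 settings run, and Ireb2 the next lowest. Some of these settings share the loess ratios and are not independent.

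Of the storage and sensing genes among the 9, Fth1 rose and Ireb2 did not pass. Fth1, the ferritin heavy chain that oxidises iron as it enters the ferritin shell, had intensities of 178579 and 173626 with ESlncRNA, against 93850 and 96689 with vector (chromosome 19, 10059485 to 10059544, mm9). It was 1.85-fold higher (0.89 ± 0.059, SD, n = 2 arrays, adjusted p = 1.54e-05, limma), the largest ratio of the 9 with loess. Ireb2, iron regulatory protein 2, which is degraded when iron is plentiful, had intensities of 255 and 226 with ESlncRNA, against 218 and 223 with vector. Its channels did not overlap but were nearly level on the array of replicate 2, and it did not pass (0.12 ± 0.15, SD, n = 2 arrays, adjusted p = 0.132, limma).

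Scaling changed the size of all these ratios, and for Slc25a37 the sign. Centring each array on its median in place of loess put the median of all genes at 0.34 and that of the 9 at 1.28, and 8 of the 9 rose, with 63% of all genes called higher and 18.3% lower. Slc25a37 was then at 0.07 (adjusted p = 0.449, limma), which is 0.27 below the median of all genes, and Ireb2 at 0.40 passed (adjusted p = 5.30e-06, limma). Relative to the median of all genes, Ireb2 was 0.06 higher with median centring and 0.15 higher with loess. With Agilent's processed signals Ireb2 was at 0.50, which is 0.39 above that median, and did not pass (adjusted p = 0.0642, limma). Fth1 ran from 0.56 with Agilent's processed signals to 1.95 with median centring. Its adjusted p was 2.14e-114 with median centring and 1.54e-05 with loess (limma). The p-values and calls with median centring are therefore not comparable with those of loess. Among all genes called, loess put 41.7% on the higher side, the processed signals 59.2% and median centring 77.5%. Tfrc, Tfr2, Slc11a2, Steap3, Slc25a38, Abcb10 and Fth1 stayed above 0 with an adjusted p of at most 0.0193 in all 10 settings. In those settings the share of all genes called higher and lower was 34.3% and 23.7% with the processed signals, 18.1% and 31.9% with the authors' deposited table, and 19.8% and 31.7% with a normexp offset of 0. It was 22.7% and 36.2% without background subtraction, 17.3% and 28.8% with no replicate block, and 26.7% and 37.1% when all probes of a gene were averaged. With no filter on dim probes it was 15.2% and 20.4%, and with both channels required above background 29.1% and 34.3%. Housekeeping genes, of which 7 were set beside them, had a median of 0.27 with loess, -0.04 for processed signals and 1.15 after median centring, where the 9 iron genes had 0.57, 0.60 and 1.28. Of these, 6 rose and B2m fell with loess (-0.64).

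**Figure D3:**
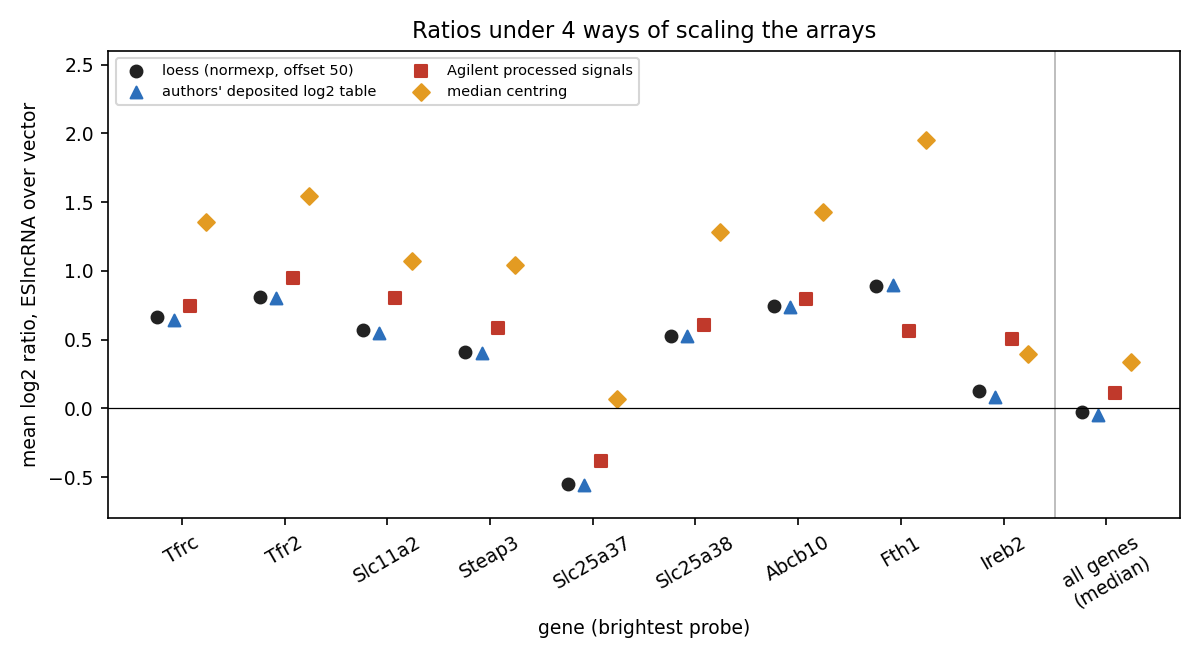
Mean log2 ratio of ESlncRNA over vector of each gene under 4 ways of scaling, with the median of all genes tested at the right. Compared with loess, median centring lifts all 9 genes, puts Fth1 at 1.95 and brings Slc25a37 to 0.07. The authors' deposited values lie close to those of loess.

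Other genes of iron and heme handling did not move as 1 block. Of 74 genes on 5 lists, 61 were tested, of which 28 rose, 23 fell and 10 did not pass, with a median log2 ratio of 0.13. Of all genes tested 26.3% were called higher and 36.8% lower, so the part of the 61 that fell was close to that of all genes. The same shares stand beside the counts of each list below. The mitochondrial and heme lists held most of the rises. Of 19 genes of mitochondrial iron and iron-sulphur clusters, 11 rose, 4 fell and 4 did not pass (median 0.25). Iba57, a late assembly factor of iron-sulphur clusters, was 1.68-fold higher (0.75 ± 0.012), and Lyrm4, the partner protein of the cysteine desulphurase, was 1.68-fold higher too (0.75 ± 0.032). Fam210b, a mitochondrial protein of erythroid cells, was 1.62-fold higher, and Isca1, another assembly factor, 1.54-fold higher (SD, n = 2 arrays, limma).

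The relatives of the 9 genes given here from that list did not move alike. Slc25a28, mitoferrin 2, the form of other tissues, had a log2 ratio of 0.08 ± 0.017 and did not pass (SD, n = 2 arrays, adjusted p = 0.178, limma). Slc25a39, another carrier of the family, was 1.27-fold lower with loess (-0.34 ± 0.0093) and at 0.10 with median centring. Abcb6, a porphyrin transporter, was 1.54-fold higher (0.63 ± 0.067), and its difference from Abcb10 was not tested.

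Heme synthesis and heme export had 16 genes tested, with a median of 0.40, of which 10 rose and 4 fell. Cpox and Fech, which act late in heme synthesis, were 2.44-fold and 2.03-fold higher (1.29 ± 0.0815 and 1.02 ± 0.055, SD, n = 2 arrays). Hmox1, the enzyme of heme breakdown, was 2.61-fold lower, and Alas1, the form of the first enzyme used outside erythroid cells, 3.84-fold lower. These sizes are those of the brightest probes. Second probes of both genes fell less, by 0.57 for Hmox1 and 0.29 for Alas1 on the log2 scale (adjusted p = 9.54e-05 and 0.0141, limma), against 1.38 and 1.94 at the brightest. Averaged over probes, the log2 ratio was -0.98 for Hmox1 and -1.12 for Alas1.

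The list of other uptake genes went the other way, with 10 of 13 tested lower, 2 higher and 1 not passing (median -0.45, or -0.41 with dim members at their bounds). The 2 that rose were Slc39a8 (2.41-fold, adjusted p = 3.61e-06, limma) and Exoc6 (1.21-fold, adjusted p = 0.00297, limma). Ltf, lactoferrin of neutrophil granules, was 24.1-fold lower, Trf, transferrin, 7.54-fold lower, Lcn2, a siderophore-binding protein of neutrophils, 5.89-fold lower and Slc11a1, the phagosomal relative of Slc11a2, 3.66-fold lower. Ltf and Lcn2 are also on the granulocyte marker list, and Trf is on the hepatocyte list. Steap1 and Steap2, relatives of Steap3, were not well above background with ESlncRNA, and were at least 1.27-fold and at least 1.08-fold lower (adjusted p = 4.81e-04 and 0.00969, limma).

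Of 6 storage, chaperone and export genes tested, 2 rose, 2 fell and 2 did not pass (median -0.09). Ftl1, the ferritin light chain, was 1.25-fold higher with loess (0.32 ± 0.11, SD, n = 2 arrays, adjusted p = 0.0031, limma) but at -0.02 with Agilent's processed signals, where Fth1 was at 0.56. Slc40a1, the iron exporter ferroportin, was 1.70-fold higher (0.76 ± 0.048). Ncoa4, the receptor that takes ferritin to the lysosome, was 2.78-fold lower (-1.48 ± 0.091). Heph, a ferroxidase of iron export, was not well above background with ESlncRNA and was at least 1.31-fold lower.

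Of 7 iron sensing and hormone genes tested, 3 were called higher by their brightest probe, 3 lower and 1 neither (median -0.01), and the 3 higher include Epas1, whose probes disagree. Aco1, iron regulatory protein 1 and relative of Ireb2, was 1.17-fold higher (0.23 ± 0.046, SD, n = 2 arrays, adjusted p = 0.00745, limma). Twsg1, a modulator of bone morphogenetic protein signals, was 1.24-fold higher. Epas1, hypoxia-inducible factor 2 alpha, gave 0.44 at its brightest probe and -1.54 at another, both past the threshold, and -0.55 when its probes were averaged (adjusted p = 3.93e-04, limma), so no direction is given for it. Hif1a and Smad4 were 1.31-fold and 1.32-fold lower with loess, and at 0.05 and 0.14 with median centring.

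**Figure D4:**
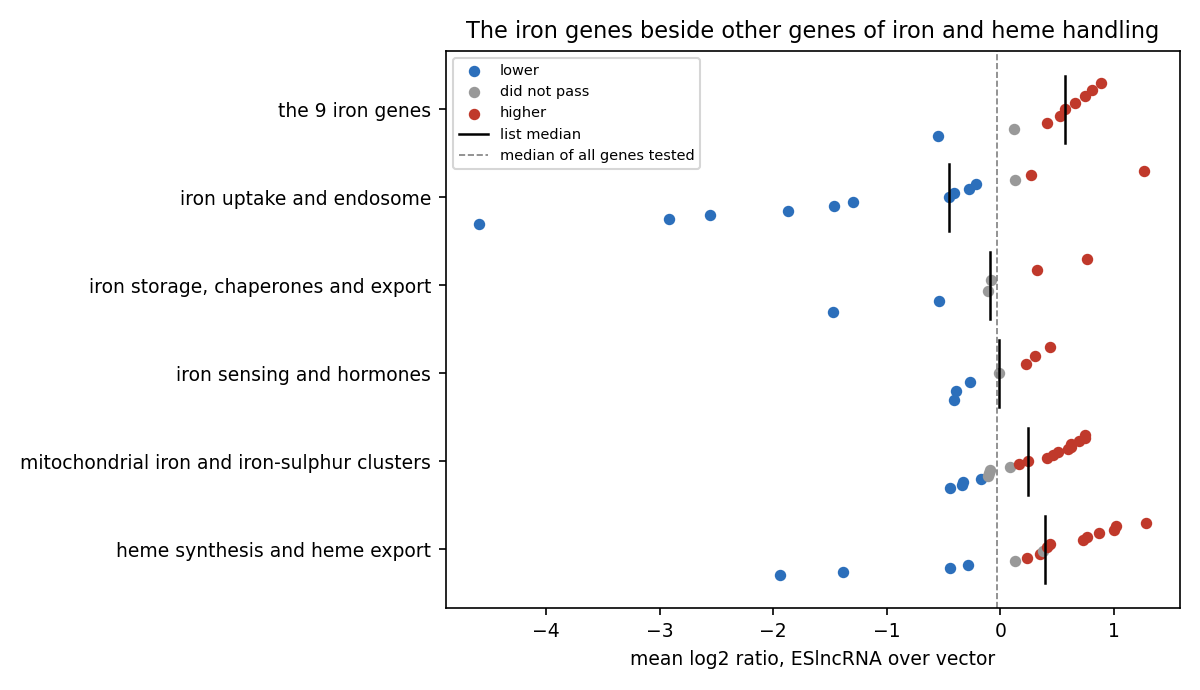
Mean log2 ratio of ESlncRNA over vector of the 9 iron genes and of the genes of 5 other iron and heme lists, each point 1 gene, with red for genes that rose, blue for those that fell and grey for those that did not pass. The solid line is the list median and the dashed line the median of all genes tested. The 9 genes have the highest median, 0.57, and the uptake and endosome list the lowest, -0.45.

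The sorted populations differed in markers of other cells, which were measured in the same RNA. All 16 granulocyte markers tested fell, with a median of -4.34. Their summed intensity was 71162 and 84942 with ESlncRNA, against 1221661 and 1357331 with vector. Chil3, a secreted lectin of myeloid cells, was 44.8-fold lower, and Mmp9 was the marker of this list not well above background with ESlncRNA. Of 14 macrophage markers, 13 fell and 1, Slc40a1, rose, and their sum was 5035 and 5430 with ESlncRNA, against 14755 and 14641 with vector. Slc40a1 alone made up 2980 and 3364 of these sums with ESlncRNA, and 1795 and 1934.5 with vector. Csf1r, the receptor of macrophage growth factor, was 9.90-fold lower. Adgre1, C1qc, Cd68, Fcgr1, Mertk, Mrc1 and Vcam1 were not well above background with ESlncRNA. Of 13 hepatocyte markers, 11 fell and 2 did not pass, with a sum of 3443 and 3299 with ESlncRNA, against 9753 and 8911 with vector, and Fgb, Fgg and Ttr not well above background with ESlncRNA.

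Erythroid markers moved with the iron genes. Of 21 tested, 16 rose, 2 fell and 3 did not pass, with a median of 0.81, and Gfi1b, an erythroid transcription factor, was 1.99-fold higher. Their summed intensity was 777402 and 693730.0 with ESlncRNA, against 495741 and 422702 with vector. The arrays disagreed on Slc4a1, the red cell anion exchanger, and Alas2, the erythroid first enzyme of heme synthesis, both singled out after their values were seen. Slc4a1 had intensities of 1625 and 900.1 with ESlncRNA, against 2221 and 322 with vector, and log2 ratios of -0.45 and 1.48. Alas2 had intensities of 1753 and 1001 with ESlncRNA, against 1774 and 585 with vector, and log2 ratios of -0.02 and 0.77. The vector channel thus differed between the replicates more than the ESlncRNA channel did for both genes, and neither passed (adjusted p = 0.288 and 0.0885, limma). In RNA of a sorted population fewer cells of a type and less RNA per cell cannot be told apart, and the part of these markers in the ratios of the iron genes was not tested. Most genes of the remaining lists fell, namely 10 of 11 mast cell, basophil and eosinophil markers (Ear2 20.2-fold), all 14 of megakaryocytes (Plek 6.31-fold), 16 of 17 of endothelium and stroma (Sparc 8.42-fold) and 13 of 14 of stem cells and early progenitors (Cd34 18.6-fold). Of 8 lymphocyte markers, 4 fell and 2 rose, with Cd79b 11.6-fold lower.

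The 3 genes nearest to Tfrc, by distance over its 2 array ratios, were Gm2861, Mageb16 and a lincRNA interval on chromosome 5, at distances of 0.00245, 0.00312 and 0.00356 on the log2 scale. On both arrays 235 genes lay within 0.1 of Tfrc.

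Promoter sequence was available for 7 of the 9 genes in 14 windows of the RefSeq table (GRCm38.p6), of which the 250 bases before each start were searched on both strands. Ireb2, which did not pass, is among these 7, while no window of Slc11a2 or Slc25a37 was used here. The GATA motif, spelled AGATAA or TGATAA, and with a last G as AGATAG or TGATAG, was in 2 of the 14 windows, 1 of Steap3 and 1 of Tfr2, and in 26.5% of all 32851 windows. The CACC motif of Krüppel-like factors, as CCNCNCCC, was in 11 of the 14, and in 45.9% of all windows. Windows of 1 gene can overlap, and so can matches of CCNCNCCC. The stretches with the GATA letters are shown with the motif in capitals.
Steap3 (chromosome 1, 120271108 to 120271137, reverse strand, GRCm38.p6; motif on the opposite strand, from 45 bases before the start): gtccggagagtgTTATCTccctccagttat
Tfr2 (chromosome 5, 137570902 to 137570931, forward strand, GRCm38.p6; motif on the same strand, from 61 bases before the start): gcctgtcagggcTGATAAggggccctctag
These matches describe letters in the windows and were not tested as binding sites.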

How the data were processed

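Two-colour Agilent arrays were scanned, and the file headers give Feature Extraction 10.1.1.1 as the software. From the authors' deposited scanner output, spot intensities (mean signal and median local background) gave the main values, and processed intensities an alternative. The direction, Cy5 over Cy3, is that of the log10 ratios deposited with them. The authors' deposited table holds log2 ratios, and limma is named in the submitters' processing notes. It correlated at r = 0.99997 and 0.99998 with loess ratios without background subtraction, which gave its scale and direction.

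With R 4.3.3 and limma 3.58.1, normexp (offset 50) and loess were applied, control and outlier-marked spots having weight 0, and spots of 1 probe were averaged. A probe was kept if either channel was well above background on each array, which left 26790 of 55681 probes and 19870 genes, each taken by its brightest probe. limma fitted an intercept, with 1 residual and, in the main fit, 5.27 prior degrees of freedom, and p-values were Benjamini-Hochberg adjusted over all probes kept. Intensities per channel are those after loess and Aquantile. A channel not well above background on both arrays gives a bound, open to dye bias. Both arrays share a slide and scan. Names came through the RefSeq table by accession for 26413 probes, by symbol for 3859 and by older symbol for 735. Members, lists and named genes were chosen with earlier results of these data known. Slc39a8 and Exoc6 were named as the 2 other uptake genes that rose. Named by rule were the 4 genes of smallest p in each iron list, relatives of members, and the gene of smallest p in each marker list. The values of 1 gene of this rule are not reported here. The fit was tested on simulated data. Their noise was drawn from the fitted model itself, without dye bias, so effects of dye and scaling were not tested there. The number of arrays limits the precision. Well above background were 45.6% and 44.4% of spots with ESlncRNA and 52.1% and 49.1% with vector.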

Additional observations from a re-analysis of the deposited data

How the results depend on the processing

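Across the alternatives, single arrays included, 97 ratios of the 9 genes kept their direction and, where fitted, their side of the threshold, and 2 did not. Part of the 97 could not change direction. For a single array only a change of sign could count, and for Ireb2, which did not pass, not even that. Settings that change only which probes are kept or the replicate block reuse the loess ratios, and so does averaging for genes with 1 probe. Slc25a37 changed sign with median centring (0.0696), and Ireb2 passed there (0.40, adjusted p = 5.30e-06, limma), where p-values and calls are not comparable with those of loess. With median centring 0 of the 9 genes fell, 12511 genes rose and 3633 fell over all genes, and 43 of the other iron genes rose and 12 fell, against 28 and 23 with loess. With Agilent's processed signals 4706 genes fell, against 7305 with loess. In the fit with no replicate block, with the 4 channel values as separate samples, 3446 genes rose, against 5223 with the array as the block, and the calls of the 9 genes were alike. A single array leaves no residual degree of freedom, so no test was possible there and the rule of size was used: at least 1.5-fold lower were 0 to 1 of the 9 genes, the 1 being Slc25a37 without replicate 2, and 0 on both arrays. Over all genes 2847 were lower by that size without replicate 1, 2960 without replicate 2 and 2677 on both arrays. All 14 probes of the 9 genes were well above background in both channels, and what set the misses of Ireb2 and the upstream Slc11a2 probe was not tested.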
